A study of Mus musculus with 30 samples.

Results

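The 35 genes described here encode factors that make ribosomes, together with Myc, the transcription factor known for driving many of them. They were taken from a table of 48709 genes by a list of gene names. The rule itself has no threshold on measured values, but the list was drawn up with earlier results of these data known. All 35 were among the 12946 genes kept by the level filter, which asked for 3 or more libraries with a scaled CPM of 1 or above. Scaled CPM is the deposited unit, read counts scaled to the size of the library and then scaled once more by the authors.

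RNA was sequenced from C2C12 cells, a mouse myoblast line that leaves the cell cycle and fuses into myotubes when growth serum is replaced by a low level of horse serum. Potassium chromate, a source of hexavalent chromium written Cr(VI), was added to the differentiation medium at 0, 2 or 5 µM. The 10 groups of 3 libraries were untreated myoblasts on day 0, and cells on days 1, 2 and 4 of differentiation at each of the 3 doses. All 30 libraries came from this single cell line, and chromate was never given without differentiation medium. The labels call the libraries of a group biological replicates without saying whether they were separate cultures, so the p-values measure the spread between these libraries.

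Libraries held 18.5 to 26.9 M reads. The summed level of 9 muscle markers was 1000 to 1220 scaled CPM on day 0 and 13900 to 15400 in control cells on day 4, so markers of the labelled cell type were present. A pair of day 1 libraries stood apart. Replicate 1 at 2 µM had a summed level of 8 adipocyte markers of 5210 scaled CPM, and replicate 3 at 5 µM had 366 for 6 lung epithelium markers and 301 for 6 leukocyte markers. In the other 28 libraries these 3 sums reached at most 2.03, 0.36 and 1.42. Changes at a chromate dose on day 1 are therefore given with and without that pair.

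Ribosome production begins in the nucleolus, where RNA polymerase I transcribes a long precursor of ribosomal RNA. Small nucleolar ribonucleoproteins then mark sites on the precursor for methylation (box C/D particles) or pseudouridylation (box H/ACA particles), and successive assembly factors fold, cut and export the small and the large subunit. The supply of these factors is known to follow cell growth and to be reduced when myoblasts stop dividing.

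Together the 35 genes had a summed level of 5807 ± 188.6 scaled CPM on day 0 (SD, n = 3). In control cells the sum was 2668 ± 66.9 on day 1, 2575 ± 11.9 on day 2 and 2935 ± 174 on day 4. At 5 µM it was 3035 ± 106, 3149 ± 59.1 and 3528 ± 42.9 on the same days, and at 2 µM it was 2737 ± 57.5, 2645 ± 42.4 and 2821 ± 77.8. Without the pair of libraries that stood apart, the day 1 sums were 3117 and 3073 at 5 µM and 2778 and 2761 at 2 µM. The 3 day 0 libraries thus lay far above every other library, and on day 4 each 5 µM library lay above each control library. Ncl and Npm1, which encode the abundant nucleolar proteins nucleolin and nucleophosmin, made up 30.9% to 54.0% of the sum in a library. Without them the day 4 sums were 1984 ± 101 in control cells and 2134 ± 64.9 at 5 µM, where the highest control library, at 2095, lay above the lowest 5 µM library, at 2092. These sums are descriptions, with no test. In bulk RNA, fewer cells of a type and less RNA per cell cannot be told apart.

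**Figure D1:**
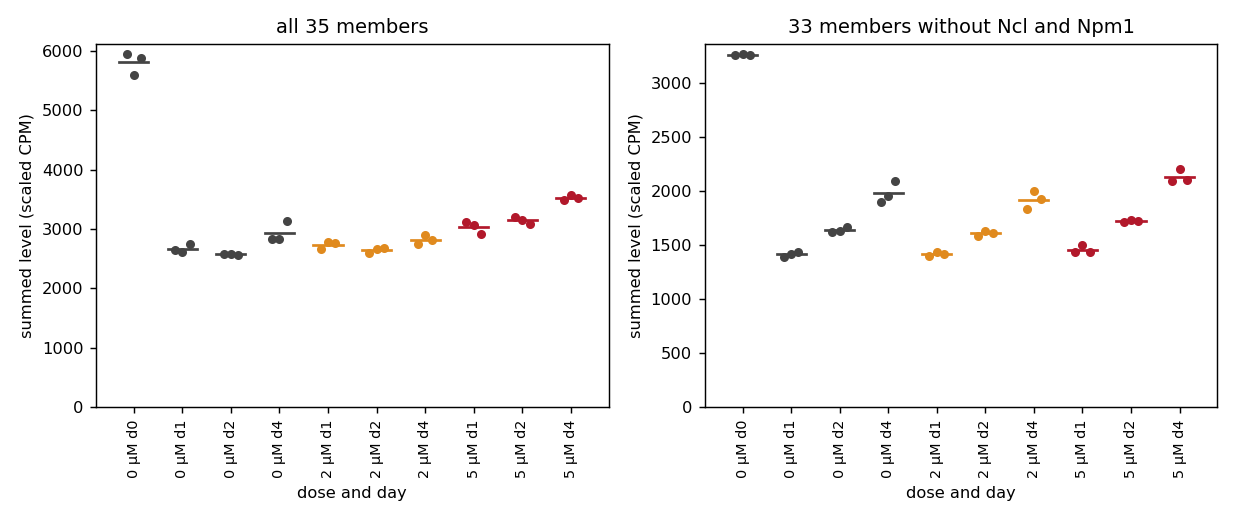
Summed level of the 35 genes (left) and of the 33 genes other than Ncl and Npm1 (right), in scaled CPM, for each library (points) with the mean of each group of 3 (lines), by dose and day (d0 to d4). Day 0 stands highest in both panels, and the rise at 5 µM is plainer on the left, where control day 4 averages 2935 and 5 µM day 4 averages 3528.

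Nearly the whole set was lower on control day 1 than on day 0. Which of the differences between these days lowered it was not tested. In control cells 34 of the 35 genes fell between day 0 and day 1 and none rose. For those 34 the 3 libraries of each day did not overlap, which was not counted over all genes. Of all genes tested, 22.7% fell in that comparison, 25.4% rose and 48.1% changed in either direction (limma, adjusted p below 0.05, the threshold used throughout). The median change of the 35 genes was -1.21 on the log2(scaled CPM + 1) scale, against 0.04 over all genes tested. At least a 2-fold fall was seen for 27 of the 35, a share not counted over all genes. On this scale the change of a low gene is understated.

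Myc itself had 37.6, 52.5 and 40.2 scaled CPM on day 0 and 12.9, 10.6 and 15.6 on control day 1. Each day 1 library lay below each day 0 library, and the change was -1.66 ± 0.17 (SE; adjusted p = 8.5e-10). Among the RNA polymerase I genes, Polr1b, which encodes the second largest subunit of the enzyme, went from 47.4, 44.9 and 47.4 to 15.5, 23.7 and 13.2, a change of -1.40 ± 0.19 (adjusted p = 2.1e-07). Tcof1, whose product treacle supports transcription of ribosomal RNA genes, fell to 34.6% of its day 0 mean, and Nolc1, which encodes a nucleolar phosphoprotein that binds snoRNPs, fell to 35.8%. Polr1a, the largest subunit, kept 68.2% of its day 0 mean while still passing the test (change -0.54). The exception among the 35 was Polr1c, a subunit that RNA polymerase I shares with RNA polymerase III, at 95.3% of day 0 with overlapping libraries (change -0.07 ± 0.15, adjusted p = 0.72).

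The deepest falls were in genes of the snoRNPs. Dkc1, which encodes the pseudouridine synthase of box H/ACA particles, had 112, 108 and 116 scaled CPM on day 0 and 20.9, 25.5 and 19.6 on day 1, which is 19.7% of its day 0 mean (change -2.30 ± 0.16, adjusted p = 3.5e-14). Nhp2, a further core protein of the same particle, fell by 2.03 on the log2 scale, whereas Nop10, the smallest core protein, fell by 0.41. On the box C/D side Nop56, a scaffold protein, went from 179, 155 and 176 to 39.9, 39.9 and 39.8, a change of -2.06 ± 0.10 (adjusted p = 2.3e-18). Fbl, which encodes the methyltransferase fibrillarin, went from 176, 176 and 150 to 60.8, 70.3 and 71.6 (change -1.29 ± 0.11, adjusted p = 1.5e-11). The day 1 libraries of Nop56 lay within 1 scaled CPM of each other, and neither gene overlapped between the days. Over the 8 snoRNP genes the changes ran from -0.41 for Nop10 to -2.30 for Dkc1.

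All 8 small subunit factors fell, by 0.68 (Nop14) to 1.57 (Rrp12) on the log2 scale, with a median change of -1.09. All 9 large subunit factors fell, by 0.41 (Noc3l) to 1.49 (Nop16), with a median of -1.19. Bop1 and Pes1, partners with Wdr12 in a complex that matures the large subunit RNAs, had changes of -0.63 and -0.51, against -1.19 for Wdr12. Of the nucleolar proteins, Npm1 went from 1381, 1212 and 1397 to 744, 803 and 795 scaled CPM, a change of -0.77 ± 0.08 (adjusted p = 6.3e-10). Ncl had a change of -1.37. Npm1 is known to have processed pseudogenes, and how reads shared with them were counted is not given, so its absolute level is uncertain. Per kilobase of annotated exon, Npm1 stood highest of the 35 on day 0 at 499 scaled CPM per kb. Ncl followed at 119 and Nhp2 at 112, and Wdr12 was the lowest at 5.7. The exon lengths used were 2665 bases for Npm1, 10188 for Ncl and 11955 for Wdr12. Which annotated exons were in the transcripts of these cells was not tested, so this order is uncertain.

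**Figure D2:**
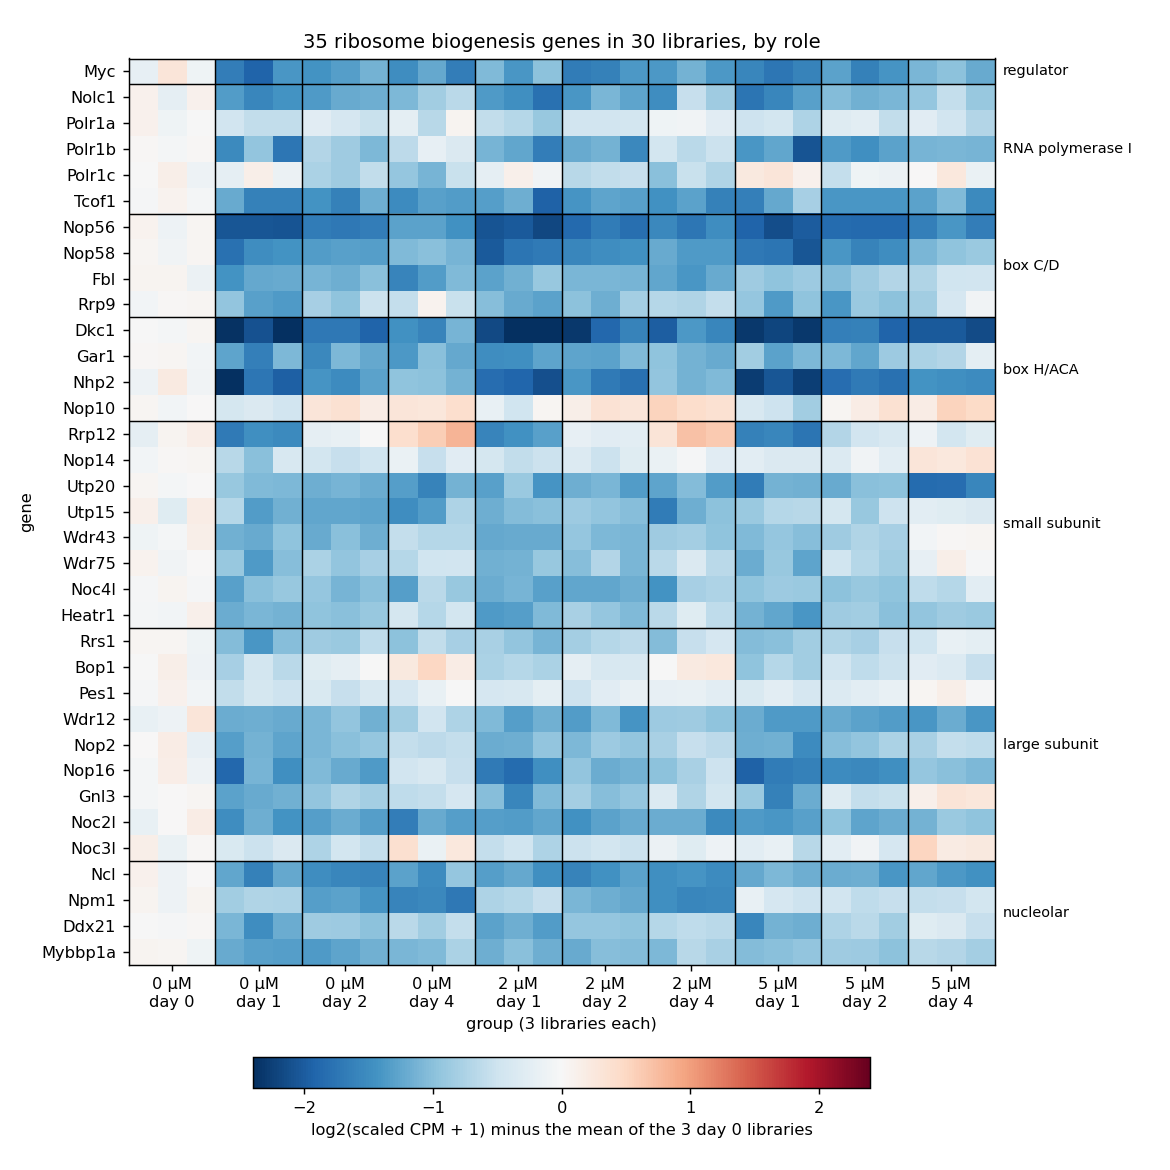
Log2(scaled CPM + 1) of each of the 35 genes (rows, by role) in each of the 30 libraries (columns, 3 per group), minus the mean of the 3 day 0 libraries of that gene. Blue marks levels below day 0 and red above. Day 1 is blue in nearly every row, with Dkc1, Nhp2 and Nop56 among the darkest, and the few red cells lie mainly in Nop10, Rrp12, Bop1, Noc3l and, at 5 µM on day 4, Nop14 and Gnl3.

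Because Myc and these genes fell together, the promoters were searched for CACGTG, the E-box letters bound by Myc with its partner Max. RefSeq promoter windows on GRCm38.p6, from 250 bases before to 50 bases after the start, were matched for 28 of the 35 genes, leaving Tcof1, Myc, Npm1, Fbl, Rrp12, Rrs1 and Bop1. The motif reads the same on both strands. It was found in 5 of the 28 genes (17.9%), against 8.09% of 27025 genes with a window. In Nop2, which encodes a methyltransferase of large subunit RNA, it lay before the start, beginning 60 bases upstream. In Utp20, Pes1, Mybbp1a and Wdr43 it lay after the start, and those 4 were chosen for printing after their values were seen. The 250 bases before the start of Nop2 (chr6:125131633-125131882, plus strand) and 30-base stretches of Utp20 (chr10:88826765-88826794, minus strand), Pes1 (chr11:3963965-3963994, plus strand), Mybbp1a (chr11:72441347-72441376, plus strand) and Wdr43 (chr17:71616220-71616249, plus strand) are shown 5′ to 3′ with the match in capitals, so that its surroundings can be compared.
Nop2: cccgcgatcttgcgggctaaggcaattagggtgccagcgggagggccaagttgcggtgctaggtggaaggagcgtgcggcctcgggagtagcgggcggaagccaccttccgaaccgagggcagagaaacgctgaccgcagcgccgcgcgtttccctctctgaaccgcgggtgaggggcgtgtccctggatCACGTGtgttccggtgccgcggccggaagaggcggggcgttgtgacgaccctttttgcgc
Utp20: cccagcggcactaactaCACGTGaggaaaa
Pes1: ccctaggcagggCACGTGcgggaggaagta
Mybbp1a: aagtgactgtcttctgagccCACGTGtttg
Wdr43: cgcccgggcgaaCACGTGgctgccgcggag
On either strand, GGGCGG, the GC box bound by Sp1, was in 21 of the 28 genes (75%) against 38.2% of all, and CCGGAAG, letters bound by ETS factors, was in 8 of the 28 (28.6%) against 9.93%. Matches of different motifs that shared bases were each counted. These are matches of letters and say nothing of binding in these cells. The 28 genes all passed the level filter, whereas the 27025 also hold genes that did not. For each motif the sets compared are therefore unlike, and shares among genes that passed were not counted. The 5 genes with CACGTG had day 1 changes from -0.51 (Pes1) to -1.28 (Mybbp1a).

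Later days brought some of the genes back. By control day 2, 32 of the 35 genes were below day 0 and none was above (24.3% and 27.6% of all genes, 51.9% in either direction). The changes on day 2 were -1.78 for Dkc1, -1.68 for Nop56, -1.55 for Ncl, -1.41 for Tcof1, -1.34 for Npm1, -1.29 for Myc, -1.10 for Fbl and -0.88 for Polr1b. By day 4, 27 were below and 3 were above (29.5% and 30.3% of all genes, 59.8% in either direction), with a median change of -0.79. The 3 above were Rrp12, a small subunit export factor, Nop10 and Bop1. Rrp12 had 39.9, 49.0 and 52.0 scaled CPM on day 0, 13.7, 16.2 and 15.5 on day 1, 40.0, 41.2 and 46.7 on day 2 and 62.5, 70.7 and 83.5 on day 4. Its day 4 libraries lay above all the others, at 154% of the day 0 mean (change 0.61 ± 0.14, adjusted p = 0.00027). Nop10 stood at 125% (change 0.32, adjusted p = 0.036) and Bop1 at 124% (change 0.30, adjusted p = 0.016). Rrp12 passed with any library left out, whereas Bop1 did not pass without day 0 replicate 3 or day 4 replicate 2 (0.24 and 0.21), and Nop10 did not pass without day 0 replicate 2 or 3 or day 4 replicate 1 or 3 (0.27 to 0.34).

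Step by step, 9 genes rose and 2 fell from control day 1 to day 2, where 12.8% of all genes rose, 9.42% fell and 22.2% changed in either direction. Rrp12 rose by 1.44, Nop10 by 0.69 and Nhp2 by 0.62 on the log2 scale, Dkc1 and Polr1b by 0.52 each, and Nop56 by 0.38; Dkc1 and Polr1b each lost the call with 4 of 6 libraries left out singly, and Fbl (0.20, adjusted p = 0.24) did not pass. The 2 that fell were Polr1c (change -0.66), the gene that had not passed on day 1, and Npm1 (change -0.58). From day 2 to day 4, 13 rose and 1 fell, where 11.7% of all genes rose, 14.1% fell and 25.7% changed. Noc3l and Nop16, both large subunit factors, rose by 0.75 each, Rrp12 by 0.74 and Wdr43, a small subunit factor that also supports ribosomal RNA transcription, by 0.47. Nop56 rose by 0.34, and Npm1 was again the gene that fell (change -0.27). Polr1b (0.49, adjusted p = 0.06), Dkc1 (0.40, adjusted p = 0.061) and Fbl (-0.22, adjusted p = 0.16) did not pass. Of these 14 calls 8 held with any library left out, and without control day 2 replicate 1 the count from day 2 to day 4 was 8 higher and 1 lower.

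Npm1 thus went down at each step in control cells, to 441, 454 and 405 scaled CPM on day 4, which is 32.6% of day 0 (change -1.62 ± 0.08, adjusted p = 1.3e-18). Tcof1, at 37.0% of day 0, Noc2l, a large subunit factor, at 37.6%, Nop56, at 39.1% and Dkc1, at 38.1%, also stayed low on day 4, as did Fbl at 40.0%. Exons of Noc2l overlap those of Samd11 on the opposite strand over 20.9% of their length, and the strand of the libraries is not given, so its level is uncertain. Myc stood at 34.7% of day 0 on day 4 (change -1.46, adjusted p = 7.2e-09), having changed by 0.37 from day 1 to day 2 (adjusted p = 0.14) and -0.17 from day 2 to day 4 (adjusted p = 0.53). Polr1b, at 76.3%, did not pass the test against day 0 (change -0.39, adjusted p = 0.081). Over all 10 groups, day 0 held the highest mean for 27 of the 35 genes, a share not counted over all genes.

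At 2 µM none of the 35 genes passed the test against control on day 1, 2 or 4 with limma, edgeR or DESeq2, while 1.99%, 0.51% and 8.84% of all genes did with limma (0.518%, 0.263% and 5.11% higher, and 1.48%, 0.247% and 3.74% lower). At an unadjusted p below 0.05, limma counted 2, 2 and 4 genes, and edgeR and DESeq2 each counted 2, 2 and 5. The 95% interval of the difference lay within a 2-fold change for all 35 genes on each day, the widest bounds being -0.50 and 0.87 on day 1, -0.81 and 0.68 on day 2 and -0.72 and 0.52 on day 4. The largest difference was that of Myc on day 1, with 20.1, 15.7 and 21.1 scaled CPM at 2 µM against 12.9, 10.6 and 15.6 in control cells. Those libraries did not overlap, by the small margin of 15.7 to 15.6, and the change of 0.51 ± 0.17 had an adjusted p of 0.15 (limma). On day 4, Nop56 had 57.1, 50.3 and 59.8 against 69.3, 68.6 and 61.3, a change of -0.25 (adjusted p = 0.12). Without control day 4 replicate 2, 2 of the genes were lower at 2 µM on day 4. For Myc the difference was -0.27 on day 2 and 0.17 on day 4, and for Nop56 it was -0.03 on day 1 and -0.10 on day 2. The changes on days 1, 2 and 4 were 0.06, -0.42 and -0.14 for Polr1b, 0.17, -0.01 and 0.03 for Fbl, -0.02, -0.15 and -0.26 for Dkc1, and 0.10, 0.17 and 0.09 for Npm1. Without the pair of day 1 libraries the changes on day 1 were 0.47 for Myc (adjusted p = 0.44, limma), 0.25 for Fbl, 0.14 for Npm1, -0.04 for Nop56, -0.05 for Polr1b and -0.09 for Dkc1. None of the 35 genes passed, 1 had an unadjusted p below 0.05, and the widest bounds were -0.56 and 0.88.

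At 5 µM the first differences that passed were few, small and upward. On day 1, 4 of the 35 genes were higher than in control cells and none was lower. Of all genes, 4.29% were higher, 9.41% lower and 13.7% either. The total of 11.4% of the 35 was thus near the 13.7% of all genes. By direction, with only 4 genes called, the shares were 11.4% higher against 4.29% and 0% lower against 9.41%. The median change of the 35 was 0.02. Npm1 had 1166, 999 and 941 scaled CPM against 744, 803 and 795 in control cells, a change of 0.40 ± 0.08 (adjusted p = 0.00041), and Fbl had 92.0, 85.3 and 90.8 against 60.8, 70.3 and 71.6, a change of 0.40 ± 0.11 (adjusted p = 0.015). For both genes each treated library lay above each control library. Nop14, a small subunit factor, and Mybbp1a, a nucleolar Myb-binding protein, were higher by 0.37 and 0.29 (adjusted p = 0.044 for each). Without the pair of day 1 libraries that stood apart, 2 of the 4 passed, namely Npm1 (0.47, adjusted p = 8.4e-05) and Fbl (0.39, adjusted p = 0.034), while Nop14 had 0.39 (adjusted p = 0.067) and Mybbp1a 0.26 (adjusted p = 0.11). Leaving out 5 µM replicate 2, 5 µM replicate 3 or control replicate 2 also left 2, and Fbl did not pass without control replicate 1 (0.33, adjusted p = 0.096). Mybbp1a failed in all 6 fits with 1 library left out (0.26 to 0.32) and Nop14 in 5 of 6. Myc differed by 0.03, Nop56 by 0.04, Dkc1 by 0.02 and Polr1b by -0.17 on day 1, none of which passed. Without the pair these differences were 0.01, 0.03, 0.05 and 0.08, and none passed.

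On day 2, 6 genes were higher and 3 lower at 5 µM, which is 17.1% and 8.57% of the 35. Of all genes, 10.2% were higher, 13.4% lower and 23.7% either, so the total of 25.7% was near the background. Npm1 had 966, 872 and 906 scaled CPM against 532, 544 and 495 in control cells, a change of 0.80 ± 0.08 (adjusted p = 9.4e-10). Utp15, a small subunit factor of the subcomplex that links ribosomal RNA transcription to processing, had 35.9, 25.3 and 34.3 against 19.9, 20.0 and 19.5 (change 0.64 ± 0.19, adjusted p = 0.0099). Neither overlapped between doses. Polr1c was higher by 0.46, Mybbp1a by 0.35, Wdr43 by 0.33 and Ncl by 0.30. The 3 lower genes were Rrp12 (change -0.39, adjusted p = 0.037), Nhp2 (-0.37, adjusted p = 0.041) and Bop1 (-0.36, adjusted p = 0.014). Polr1b was at -0.49 (adjusted p = 0.062), Fbl at 0.23, Nop56 at -0.17, Myc at -0.15 and Dkc1 at 0.05, none of which passed. The count of 9 was 5 without control replicate 1, control replicate 3 or 5 µM replicate 1, and 4 without 5 µM replicate 2. Npm1, Mybbp1a and Wdr43 passed with any library left out. Utp15 did not without 5 µM replicate 1 (0.55, adjusted p = 0.064), and Polr1c, Nhp2, Rrp12, Bop1 and Ncl failed in 2 to 5 of 6 such fits.

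By day 4, 15 of the 35 genes were higher at 5 µM than in control cells, 9 were lower and 11 did not pass, where 27.3% of all genes were higher, 28.6% lower and 55.8% either. The 24 that passed are 68.6% of the 35. The share higher, 42.9%, was above that of all genes, and the share lower, 25.7%, was near it, and all genes likewise moved in both directions. With median-of-ratios scaling or edgeR the split was 13 higher and 10 lower, and with DESeq2 it was 12 and 10. With each library left out in turn, 18 of the 24 passed every time. The other 6, Utp20, Noc4l, Pes1, Noc2l, Ddx21 and Mybbp1a, each failed in 2 to 4 of 6 such fits, with changes that kept their sign. The median change was 0.09, against -0.01 over all genes, because the rises and falls lay on both sides of it. For 20 of the 24 genes that passed, the libraries of the 2 doses did not overlap, a share not counted over all genes. The other 4 were Utp20, Noc4l, Pes1 and Mybbp1a. Of the day 2 calls 8 were made again on day 4 in the same direction and none in the opposite direction. How often day 2 calls were made again over all genes was not counted. Npm1 was higher on all 3 days. Mybbp1a was called higher on all 3 days too, but its day 1 call failed with any library left out.

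**Figure D3:**
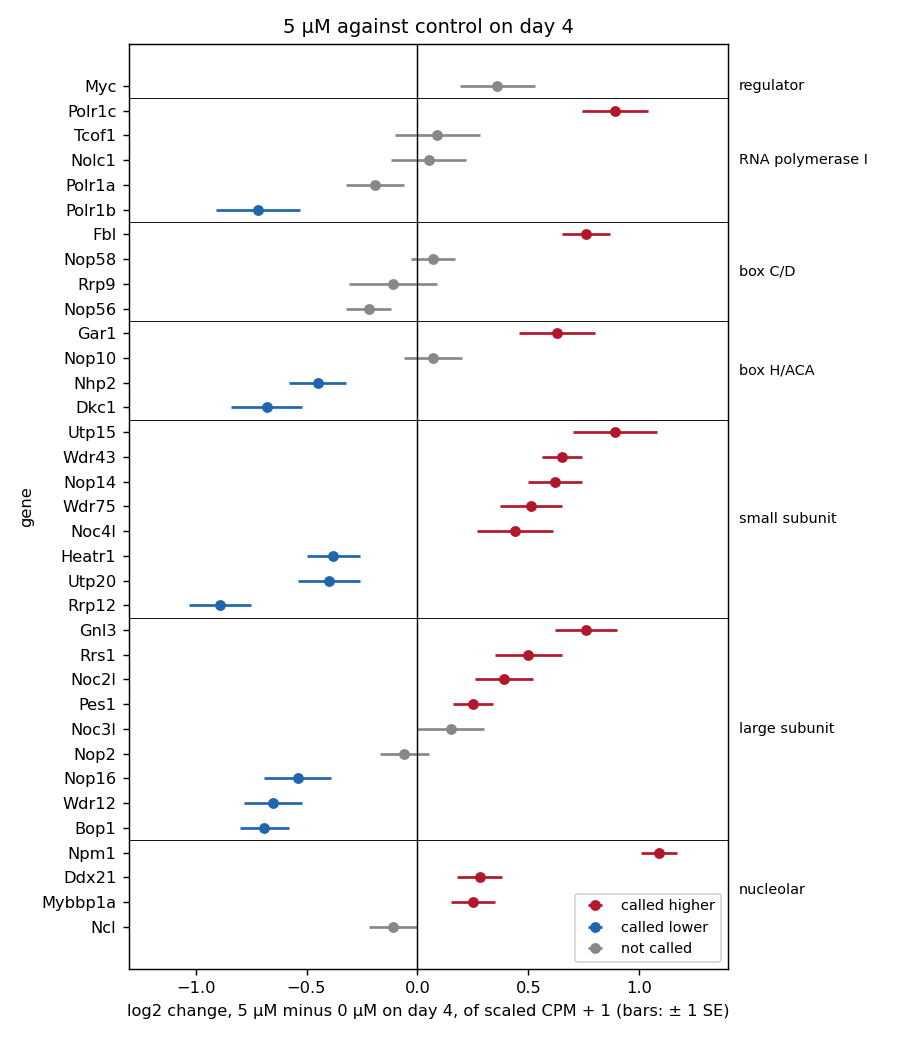
Log2 change of each of the 35 genes at 5 µM against control on day 4 (points) with 1 standard error either side (bars), ordered within each role. Red marks the 15 genes called higher, blue the 9 called lower and grey the 11 not called. Red and blue points stand side by side within the RNA polymerase I, box H/ACA, small subunit and large subunit groups.

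Within RNA polymerase I the subunits moved in opposite directions. Polr1c had 59.2, 70.2 and 52.9 scaled CPM at 5 µM against 30.6, 26.8 and 40.5 in control cells on day 4, a change of 0.89 ± 0.15 (adjusted p = 4.3e-06). Polr1b had 21.0, 21.2 and 20.9 against 29.7, 40.4 and 36.5, a change of -0.72 ± 0.19 (adjusted p = 0.002). Neither gene overlapped between the doses, and the 3 treated libraries of Polr1b were close to identical. Polr1a, with -0.19, Tcof1, with 0.09, and Nolc1, with 0.05, did not pass. Myc had 19.4, 21.2 and 17.9 against 14.6, 17.8 and 12.9. Its libraries did not overlap, but the change of 0.36 ± 0.17 did not pass (adjusted p = 0.08), except without control replicate 2 (0.48, adjusted p = 0.036).

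The snoRNP proteins divided in a similar way. In box H/ACA particles Dkc1 had 26.8, 27.0 and 24.5 scaled CPM against 40.4, 36.7 and 50.9, a change of -0.68 ± 0.16 (adjusted p = 0.00051), and Nhp2 was lower by 0.45. Gar1, the core protein that docks on the Dkc1 product, had 28.1, 29.0 and 40.8 against 17.9, 23.6 and 20.0, a change of 0.63 ± 0.17 (adjusted p = 0.0019). Nop10 was at 0.07 (adjusted p = 0.66). In box C/D particles Fbl had 100, 119 and 121 against 55.3, 65.5 and 79.9, a change of 0.76 ± 0.11 (adjusted p = 8.3e-07) with no overlap. Its partners Nop56, at -0.22 (adjusted p = 0.059, but lower by its test with edgeR, DESeq2 and median-of-ratios scaling), Nop58, at 0.07, and Rrp9, at -0.11, did not pass.

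All 8 small subunit factors passed, 5 upward and 3 downward. Utp15 had 40.5, 39.5 and 37.8 scaled CPM against 16.7, 18.5 and 28.6, a change of 0.89 ± 0.19 (adjusted p = 0.00011). Wdr43 was higher by 0.65 and Wdr75 by 0.51, while Heatr1, which belongs with these 3 to the subcomplex that links transcription to processing, was lower (change -0.38, adjusted p = 0.006). Nop14 and Noc4l, partners in small subunit assembly, were higher by 0.62 and 0.44. The largest fall of the 35 genes was that of Rrp12, with 42.7, 33.9 and 38.2 against 62.5, 70.7 and 83.5 (change -0.89 ± 0.14, adjusted p = 1.3e-06). Each treated library of Rrp12 lay well below each control library, and Utp20, a large scaffold protein, was lower by 0.40 with overlapping libraries.

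Among the 9 large subunit factors 4 were higher, 3 were lower and 2 did not pass. Gnl3, which encodes the nucleolar GTPase nucleostemin, had 88.2, 100.2 and 97.8 scaled CPM against 52.7, 54.3 and 60.9, a change of 0.76 ± 0.14 (adjusted p = 2.8e-05). Rrs1 was higher by 0.50, Noc2l by 0.39 and Pes1 by 0.25. Bop1 had 97.5, 93.4 and 80.0 against 140, 167 and 133, a change of -0.69 ± 0.11 (adjusted p = 1.8e-06), and Wdr12 had a change of -0.65 and Nop16 of -0.54. In the complex of Pes1, Bop1 and Wdr12, then, 1 gene was higher and 2 were lower, although the call of Pes1 was among those that failed without some libraries. Nop2, at -0.06, and Noc3l, at 0.15, did not pass.

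Npm1 showed the largest rise, and among the nucleolar proteins Ddx21, a helicase, and Mybbp1a were higher too (0.28 and 0.25), while Ncl was at -0.11 (adjusted p = 0.41). Npm1 had 891, 899 and 973 scaled CPM on day 4 at 5 µM against 441, 454 and 405 in control cells, a change of 1.09 ± 0.08 (adjusted p = 1.4e-13). Among the 35, only its fitted change reached 2-fold. At 5 µM its level on day 4 differed from that on day 2 by 0.01 (adjusted p = 0.94). The difference between the doses in that step, tested directly, was 0.28 and did not pass (adjusted p = 0.064).

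**Figure D4:**
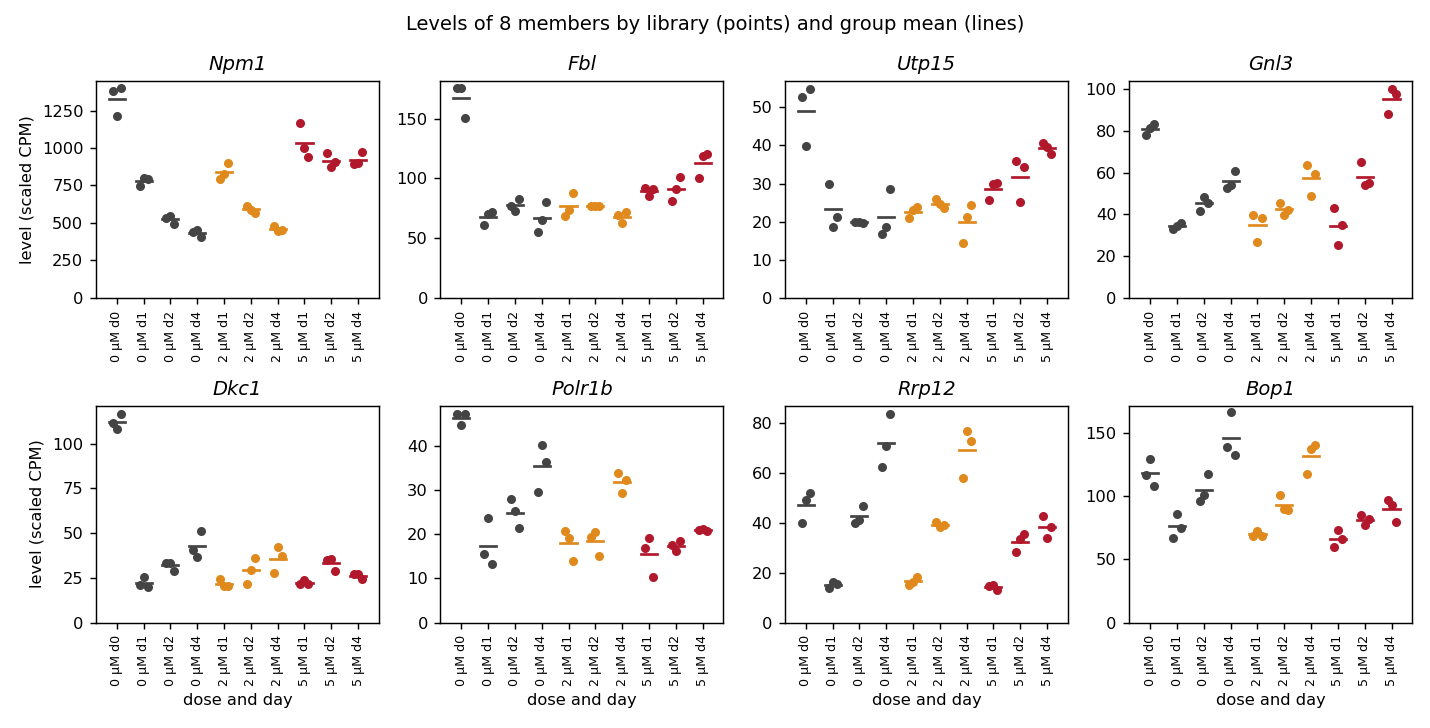
Level in scaled CPM of 8 of the genes in each library (points) with the mean of each group of 3 (lines), by dose and day (d0 to d4); each panel has its own linear axis from 0. In the upper row, Npm1, Fbl, Utp15 and Gnl3 stand higher at 5 µM than in control cells on day 4, and in the lower row Dkc1, Polr1b, Rrp12 and Bop1 stand lower.

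The 2 chromate doses were also compared with each other. On day 2, Npm1 (0.63, adjusted p = 3.6e-07) and Gnl3 (0.44, adjusted p = 0.034) were higher at 5 µM than at 2 µM and none was lower, where 4.64% of all genes were higher, 8.13% lower and 12.8% either. That count was 1 without 2 µM replicate 2 or 3, or without 5 µM replicate 1 or 3, when Gnl3 did not pass (0.36 to 0.48). Fbl (0.23), Dkc1 (0.20), Myc (0.12), Nop56 (-0.08) and Polr1b (-0.07) did not pass on day 2. On day 4, 15 genes were higher and 9 lower, where 22.8% of all genes were higher, 24.8% lower and 47.6% either. Rrp12 (-0.83), Polr1b (-0.58), Bop1 (-0.54), Utp20 (-0.53) and Dkc1 (-0.42) were lower, and Npm1 (1.00), Utp15 (0.97), Wdr43 (0.87), Polr1c (0.79) and Fbl (0.73) were higher. The day 4 comparisons of 5 µM with 0 and 2 µM share the 5 µM libraries. In both, 13 genes were higher and 8 lower, and the share of all genes was not counted. Of the 24 calls against 2 µM on day 4, 15 held with any library left out and 9 did not. Dkc1 did not pass without 2 µM replicate 2 or 3 or 5 µM replicate 3 (-0.38 to -0.28). The others lost in some fits were Polr1a, Nop58, Gar1, Noc4l, Heatr1, Rrs1, Pes1 and Ddx21. Myc (0.19) and Nop56 (0.03) did not pass.

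Under 5 µM, 15 of the genes rose and 1 fell between day 2 and day 4, where 21% of all genes rose, 20.3% fell and 41.3% changed. Wdr43 rose by 0.79, Gnl3 by 0.71, Rrp9, a box C/D protein, by 0.65 and Wdr75 by 0.64. The gene that fell was Utp20, from 62.4, 72.3 and 73.7 scaled CPM to 40.0, 40.2 and 48.8 (change -0.68, adjusted p = 0.00011). Nop56 rose by 0.30 and Fbl by 0.31, while Myc (0.34, adjusted p = 0.12), Polr1b (0.26, adjusted p = 0.3) and Dkc1 (-0.33, adjusted p = 0.1) did not pass. Fbl lost the call without replicate 1 or 2 of day 2 or replicate 2 or 3 of day 4 (0.23 to 0.31). Of the 16 calls 9 held with any library left out; besides Fbl, those lost in some fits were Rrp9 (0.47 and 0.49 in 2 of 6), Nop56 (0.21 in 1 of 6), Gar1, Noc4l, Rrs1 and Pes1. The difference for Dkc1 was 0.40 over the same days in control cells (adjusted p = 0.061).

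The change of the 5 µM effect from one day to the next was tested directly. From day 1 to day 2 it grew for 1 gene, Npm1 (0.40 ± 0.11, adjusted p = 0.024), where 3.04% of all genes moved up, 2.76% down and 5.8% either; without the pair of day 1 libraries the value was 0.34 (adjusted p = 0.072), so no gene passed. The changes over the same days were 0.03 for Dkc1, -0.17 for Fbl, -0.18 for Myc, -0.22 for Nop56 and -0.32 for Polr1b, and without the pair they were 0.01, -0.16, -0.16, -0.21 and -0.57, none of which passed. From day 2 to day 4 it moved up for Fbl (0.53 ± 0.16, adjusted p = 0.015) and down for Dkc1 (-0.73 ± 0.22, adjusted p = 0.017) and Heatr1 (-0.44 ± 0.16, adjusted p = 0.048), where 12.5% of all genes moved up, 11.2% down and 23.7% either. Fbl did not pass without control day 4 replicate 1 or 5 µM day 2 replicate 1 (0.40 and 0.45), nor Dkc1 without control day 4 replicate 3 (-0.59), and Heatr1 did not pass in 10 of its 12 fits with 1 library left out. The change for Myc was 0.51 (adjusted p = 0.14), for Polr1b -0.23, for Nop56 -0.05 and for Npm1 0.28, as above. With median-of-ratios scaling, edgeR or DESeq2 the count was 1 up and 5 down, Rrp12, Ncl and Utp20 being added. For the remaining genes the effect on day 4 was not shown to differ from that on day 2.

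Set against day 0 myoblasts, the day 4 cells at 5 µM had 24 of the genes lower and 2 higher, where 29.7% of all genes were lower, 33.5% higher and 63.2% either. Dkc1 (change -2.06) was at 23.3% of its day 0 mean, Utp20 (-1.75) at 29.4%, Nop56 (-1.56) at 33.6% and Nhp2 (-1.47) at 35.4%. Polr1b (-1.11), Myc (-1.10), Fbl (-0.56) and Npm1 (-0.53) were also lower. Nop10 and Nop14 were higher, at 133% and 123% of day 0. Nop14 failed with any of the 6 libraries left out, and Nop10 failed without 5 µM day 4 replicate 2 (0.32, limma adjusted p = 0.06). With median-of-ratios scaling or DESeq2, 1 gene was higher and 25 were lower. Of the 15 genes above control on day 4, 7 passed as below day 0 and 8 did not, among them Wdr43 at 99.9%, Wdr75 at 98.2%, Polr1c at 103% and Gnl3 at 118% of the day 0 mean. Both comparisons use the 5 µM day 4 libraries, so picking genes that were high there favours levels near or above day 0. The share of all genes was not counted.

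Other genes of the pathway, from lists drawn up with earlier results of these data known, are given as counts. From day 0 to control day 1, 32 of 42 other small subunit factors fell and none rose (median change -0.65), 42 of 51 other large subunit factors fell and 2 rose (-0.69), and 7 of 12 other RNA polymerase I genes (-0.50), 7 of 9 other snoRNP genes (-0.61) and 11 of 14 exosome genes (-0.72) fell with none rising. Of the 79 cytosolic ribosomal proteins 39 fell and none rose, with a median of -0.25. In that step 22.7% of all genes fell and 25.4% rose. On day 4 at 5 µM against control, 18 other small subunit factors were higher and 6 lower (median 0.24), 17 other large subunit factors were higher and 8 lower (0.16), and 4 other RNA polymerase I genes were higher and 1 lower (0.31). The other snoRNP genes had 5 higher and 2 lower, the exosome genes 2 higher and none lower, and the ribosomal proteins 13 higher and 10 lower with a median of -0.01. The shares higher were 42.9%, 33.3%, 33.3% and 55.6% for the small subunit, large subunit, RNA polymerase I and snoRNP lists, against 27.3% of all genes, and 14.3% and 16.5% for the exosome and ribosomal protein lists. The shares lower were at most 22.2% in these 6 lists, against 28.6% of all genes. Among small subunit factors Cirh1a, of the same subcomplex as Utp15, was higher by 1.15 and Tbl3 had a change of -1.28.

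Of 25 known Myc targets outside the pathway lists, 24 fell on control day 1 (median -1.06), where 22.7% of all genes fell. On day 4 at 5 µM 9 were higher and 7 lower than in control cells. Those are 36.0% and 28.0% of the 25, against 27.3% and 28.6% of all genes, so the share lower was near the background. Of 10 measured genes of the Myc network, 4 rose and 1 fell from day 0 to control day 1, where 25.4% of all genes rose. Mycl, a Myc paralog, rose from 5.1 to 51.5 scaled CPM and Mxd4, an antagonist of Myc, from 22.7 to 120. The gene that fell was Mxd3, from 19.5 to 6.13 (change -1.46). At 5 µM on day 4, 3 of the 10 were higher than in control cells and 4 were lower. Those are 30.0% and 40.0% of the 10, against 27.3% and 28.6% of all genes. Mxd3 had the largest change, at 0.113 against 7.16 in control cells (change -2.74). Mycl was at 10.9 against 39.1 (change -1.75), and Mnt, a further antagonist, at 47.3 against 14.3 (change 1.65).

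Markers of cell state changed too, not always in the direction of the 35 genes. The summed level of 6 markers of dividing cells was 1550 to 1650 scaled CPM on day 0, 291 to 391 on control day 1, 227 to 249 on control day 4 and 19.1 to 21.8 at 5 µM on day 4. On day 2 it was 375 to 400 in control cells and 56.4 to 62.3 at 5 µM. All 6 fell in the first step and all 6 were lower at 5 µM on day 4. The summed level of the 9 muscle markers on day 4 was 13900 to 15400 in control cells and 5330 to 6270 at 5 µM, with 8 lower and Myf5 higher. The part of either change in the levels of the 35 genes was not tested. The adipocyte, lung epithelium, leukocyte and endothelium markers each summed to at most 1.32 scaled CPM in any control or 5 µM library on day 4.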

How the data were processed

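Total RNA from 30 C2C12 libraries was taken with TRIzol and made into libraries with an Illumina TruSeq RNA kit, per the labels' protocols. The authors deposited 1 table of signal values, named CPM in the labels. Every value was a whole number of reads (100% within 0.02 of a read) times a constant per library of 0.038 to 0.0584, and the columns summed to 892246 to 1079916, so a further scaling had been applied. How reads were aligned, counted and scaled, the genome build and the strand: not given in the sources used here. The design had assumed plain CPM, and the test fixed for it was kept.

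The 12946 genes with a scaled CPM of 1 or above in 3 or more libraries were fitted as log2(scaled CPM + 1) with limma 3.58.1 in R 4.3.3. The model held 1 mean for each of the 10 groups over the 30 libraries, which left 20 residual degrees of freedom, and eBayes used the trend of variance with mean. The 17 comparisons were two-sided, with Benjamini-Hochberg adjustment over all genes at 0.05. "Rose", "fell", "higher" and "lower" are used of genes that passed. The fit was tested on simulated data. The alternatives were a pseudocount of 0.25, no level filter, a minimum of 5 scaled CPM, median-of-ratios scaling, only the groups compared, a replicate block, edgeR 4.0.16 and DESeq2 1.42.0 on the recovered reads, each library left out, and, added later, both day 1 libraries with extra transcripts left out.

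The genes and lists were chosen with earlier results of these data known. Named in every comparison were Myc, Polr1b, Nop56, Fbl, Dkc1 and Npm1. Added to them were up to 4 genes in each direction with the largest change among those that passed without overlap, and those in the rarer direction. Genes completing a complex or a role were named after their values were seen. Exon lengths are from GENCODE M21, and promoters from RefSeq.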

Additional observations from a re-analysis of the deposited data

Results flagged for a closer look

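The effect of 5 µM, taken as the difference from control cells of the same day, changed between days by its own test for 4 of the 35 genes. For Npm1 it grew by 0.40 on the log2 scale from day 1 to day 2, and this 1 gene is 2.86% of the 35 against 5.8% of all genes. It did not pass without the pair of day 1 libraries that stood apart (0.34, adjusted p = 0.072, limma), nor in 6 of 12 fits with 1 library left out. From day 2 to day 4 the 3 genes are 8.57% of the 35 against 23.7% of all genes, so both shares were below the background. The effect moved by 0.53 for Fbl, by -0.73 for Dkc1 and by -0.44 for Heatr1. Fbl was at 0.23 on day 2 and 0.76 on day 4, and Dkc1 went from 0.05 to -0.68 and Heatr1 from 0.06 to -0.38. Heatr1 did not pass in 10 of 12 fits with 1 library left out, Fbl in 2 and Dkc1 in 1. No group held enough libraries for a test of single libraries that stand apart.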

How the results depend on the processing

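The count of 34 genes lower on control day 1 was the same under every planned setting other than leaving out a library, where it was 33 to 34 and Noc3l was the gene lost. Counts that moved by over 1.5 times are given here, and in each the cause was not tested unless fewer libraries were fitted. For 5 µM against control on day 1, 2 genes passed with only the groups compared and 2 without both day 1 libraries with extra transcripts, against 4, and 2 to 3 with 1 library left out. For the change of the 5 µM effect from day 1 to day 2, 0 passed without that pair and 0 to 1 with 1 library left out. For the change from day 2 to day 4, 5 passed with the minimum of 5 scaled CPM and 6 with median-of-ratios scaling, edgeR, DESeq2 or without the pair, against 3, and 2 to 6 with 1 library left out. With 1 library left out, other counts also moved this far. They were 9 to 13 for control day 4 against day 2 and 0 to 2 for 2 µM on day 4. For day 2 they were 4 to 7 at 5 µM against control and 1 to 3 at 5 µM against 2 µM. The count for 5 µM against control on day 4 moved less, at 20 to 24 against 24.

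Among the genes named by rule a change of sign was seen in 14 results, none past the threshold (largest size 0.11). Over all 35 genes and every alternative it was seen in 104 results, 15 of them without the pair of day 1 libraries, none past the threshold before or after (largest size 0.20 and 0.08). Without the pair of day 1 libraries Polr1b was at -0.05 at 2 µM and 0.08 at 5 µM on day 1, and with edgeR Npm1 was at -0.01 between days 2 and 4 at 5 µM. With 1 library left out, the 2 µM values on day 1 were -0.11 to 0.29 for Polr1b, -0.07 to 0.02 for Nop56 and -0.09 to 0.09 for Dkc1. On day 2 they were -0.05 to 0.04 for Fbl and -0.31 to 0.04 for Dkc1, and on day 4 -0.09 to 0.17 for Fbl. At 5 µM on day 1 they were -0.10 to 0.16 for Myc, -0.34 to 0.08 for Polr1b and -0.05 to 0.13 for Dkc1, and on day 2 -0.02 to 0.15 for Dkc1. Against 2 µM they were -0.20 to 0.01 for Polr1b on day 2 and -0.06 to 0.08 for Nop56 on day 4. Between days 2 and 4 at 5 µM Npm1 was at -0.03 to 0.05, and the change of the effect on Dkc1 from day 1 to day 2 was -0.08 to 0.13.

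Replicate numbers did not pair the libraries. The correlation of deviations from the group means between same-numbered libraries had a median of 0.0055 and ranged from -0.225 to 0.128 over 135 pairs, and 10 of 30 libraries were closest to their own number. With the replicate block 34 genes were lower on control day 1 and 24 passed at 5 µM on day 4, as without it; over the 17 comparisons 3 calls were lost and 5 gained. Those lost were Heatr1 in the change from day 2 to day 4 (-0.44, adjusted p = 0.057, limma), Ncl at 5 µM on day 2 (0.30, adjusted p = 0.053) and Nop58 from control day 2 to day 4 (0.27, adjusted p just above 0.05). Those gained were Polr1b at 5 µM on day 2 (-0.49, adjusted p = 0.046), Polr1b and Pes1 from control day 2 to day 4 (0.49 and 0.24), Noc2l at 5 µM against 2 µM on day 4 (0.30) and Rrp12 in the change from day 2 to day 4 (-0.51). The lowest group mean of any of the 35 genes was 13.0 scaled CPM, and what depth limits was not tested.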
